A study of Mus musculus with 6 samples.

Results

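Genes of mouse chromosome 17 were compared between explanted mammary tumour cells with a control short hairpin RNA (shCTL, 3 libraries) and the same kind of cells with a hairpin against CdGAP (shCdGAP, 3 libraries). CdGAP is a GTPase-activating protein for the small GTPases Rac1 and Cdc42. The members were the genes placed on chromosome 17 whose symbol does not begin with H2- and whose mean over the 6 libraries was at least 10 CPM (counts per 1000000 counts of the library). They numbered 444 of 41214 genes in the files, of 1680 on chromosome 17 and of 9325 that reached this level anywhere in the files. The cells of both groups came from the NMuMG line, which was made from the epithelium of a healthy mouse mammary gland, and carried ErbB2, an oncogenic receptor of the EGF receptor family. The labels give the genotype as WT for shCTL and CdGAP KD for shCdGAP. They do not say whether the cells of a group came from 1 clone, or whether the replicates were separate cultures, so standard errors cover only how far these libraries differ, and that may be technical. Where 3 values follow each other for a group, they are replicates 1, 2 and 3 in that order. Age, treatment time and host were not given in the sources used here.

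A chromosome is transcribed gene by gene, but its genes share their DNA copy number, and the RNA of many genes follows the number of copies, while genes under strong feedback or cell-state control need not. Mouse chromosome 17 carries the t-complex near its centromere and the major histocompatibility complex further along, and genes of general use (chaperones, ribosomal proteins, splicing factors) lie among tissue-specific ones. DNA copy number was not measured in these libraries. The chromosome was picked because its genes were higher in shCdGAP in these same libraries, so the shift is given as a description, with no test, and supports nothing by itself.

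Total counts ran from 19176540 to 26824249 per library. Arhgap31, which encodes CdGAP, was at 13.2 to 15.1 CPM in shCTL and at 1.7, 9.15 and 8.2 CPM in shCdGAP replicates 1 to 3. Of 12 markers of mammary epithelium, 7 reached 1 CPM, led by Krt8, and Cldn3 and Cldn7 had 0 counts. Summed markers of fibroblasts, leukocytes, endothelium, adipocytes and red cells stayed under 11 CPM in each library. They ran from 5.35 to 6.19 CPM in shCTL and 3.41 to 7.01 in shCdGAP for fibroblasts (Lum and Thy1 at 0), 2.11 to 3.76 and 2.46 to 6.83 for leukocytes (Tyrobp at 0), and 4.29 to 5.1 and 6.54 to 10.1 for endothelium. For adipocytes they ran from 4.36 to 4.85 and 0.68 to 1.51 CPM (Plin1 at 0), and for red cells up to 0.145 CPM (Hba-a2, Hbb-bs, Hbb-bt and Alas2 at 0). Library shCdGAP replicate 1 stood apart from the other 2 of its group: its chi-square per degree of freedom over genes was 155 against replicate 2 and 203 against replicate 3, and 13.9 between those 2. To a smaller extent shCTL replicate 1 stood apart in its group too. Its values were 27.8 against replicate 2 and 28.7 against replicate 3, and 3.16 between those 2. Results are therefore also given without shCdGAP replicate 1, and some without shCTL replicate 1 or both.

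Promoter stretches of 6 members are shown because they span the range of behaviour: Tcp1 lay close to the member median, Tubb5 did so only as an average over libraries that differ, Notch4 and Hmga1 had the lowest log2 fold changes among members with a matched promoter, and C3 and Cyp1b1 the highest. Each runs 5′ to 3′ from 100 bases before to 50 bases after the transcription start, from RefSeq on GRCm38.p6, with CpG dinucleotides in capitals.
Tubb5, chr17:35838252-35838401, minus strand: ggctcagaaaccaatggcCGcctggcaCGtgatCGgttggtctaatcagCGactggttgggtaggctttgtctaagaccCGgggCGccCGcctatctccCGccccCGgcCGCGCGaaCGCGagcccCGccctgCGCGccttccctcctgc
Tcp1, chr17:12916229-12916378, plus strand: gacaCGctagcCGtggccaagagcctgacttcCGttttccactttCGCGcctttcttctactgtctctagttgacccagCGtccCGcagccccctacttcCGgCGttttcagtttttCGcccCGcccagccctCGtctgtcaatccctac
Notch4, chr17:34564195-34564344, plus strand: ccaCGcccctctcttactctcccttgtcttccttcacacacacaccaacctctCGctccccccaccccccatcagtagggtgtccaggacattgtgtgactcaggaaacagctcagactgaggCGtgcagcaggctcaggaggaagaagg
Hmga1, chr17:27556504-27556653, plus strand: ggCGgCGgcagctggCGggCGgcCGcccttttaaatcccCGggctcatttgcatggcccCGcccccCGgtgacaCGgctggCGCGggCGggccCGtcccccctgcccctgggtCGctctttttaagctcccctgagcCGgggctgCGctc
C3, chr17:57228087-57228236, minus strand: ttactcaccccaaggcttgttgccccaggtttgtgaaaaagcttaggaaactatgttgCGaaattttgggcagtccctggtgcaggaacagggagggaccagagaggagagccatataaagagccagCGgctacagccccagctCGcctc
Cyp1b1, chr17:79715012-79715161, minus strand: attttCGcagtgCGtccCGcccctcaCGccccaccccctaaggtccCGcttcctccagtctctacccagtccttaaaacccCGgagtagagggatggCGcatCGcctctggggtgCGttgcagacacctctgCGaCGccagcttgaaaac
Tubb5 and Tcp1, a tubulin and a chaperonin subunit made in most cells, held 17 and 12 CpGs in these 150 bases, and Notch4 and C3 held 3 each. Hmga1 held 16 and Cyp1b1 held 11, so low and high CpG content occurred among both the lowest and the highest members. Over the 300-base promoters, the observed over expected CpG ratio was 0.93 for Tubb5, 0.85 for Tcp1, 0.21 for Notch4, 0.97 for Hmga1, 0.14 for C3 and 0.64 for Cyp1b1.

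The shift was seen first in the share of each library's counts that fell on the 444 members. That share was 3.38%, 3.37% and 3.4% in the control libraries and 4.03%, 4.45% and 4.45% in the shCdGAP libraries (means 3.38% ± 0.015 and 4.31% ± 0.24, SD, n = 3). All 3 shCdGAP libraries lay above all 3 shCTL libraries. Without the 5 most abundant members (Hsp90ab1, Tubb5, Cd2ap, Ezr and Rps2) the means were 2.77% ± 0.01 and 3.49% ± 0.081, so a few abundant genes did not carry the difference.

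Gene by gene, the median log2 fold change of the members (shCdGAP over shCTL, edgeR) was 0.41, or 1.33-fold, with an interquartile range of 0.18 to 0.64. The same median was 0.01 over the 13483 genes tested and 0.00 over the 8863 genes of at least 10 CPM on the other chromosomes. A log2 fold change above 0 was found for 381 of 444 members (85.8%), against 50% on the other chromosomes. Against the shCTL mean, the member median was 0.38, 0.42 and 0.42 in shCdGAP replicates 1 to 3. Each shCTL library against the mean of the other 2 gave −0.03, 0.00 and 0.03. The medians of the 3 shCdGAP libraries thus lay close together and apart from the shCTL libraries.

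**Figure D1:**
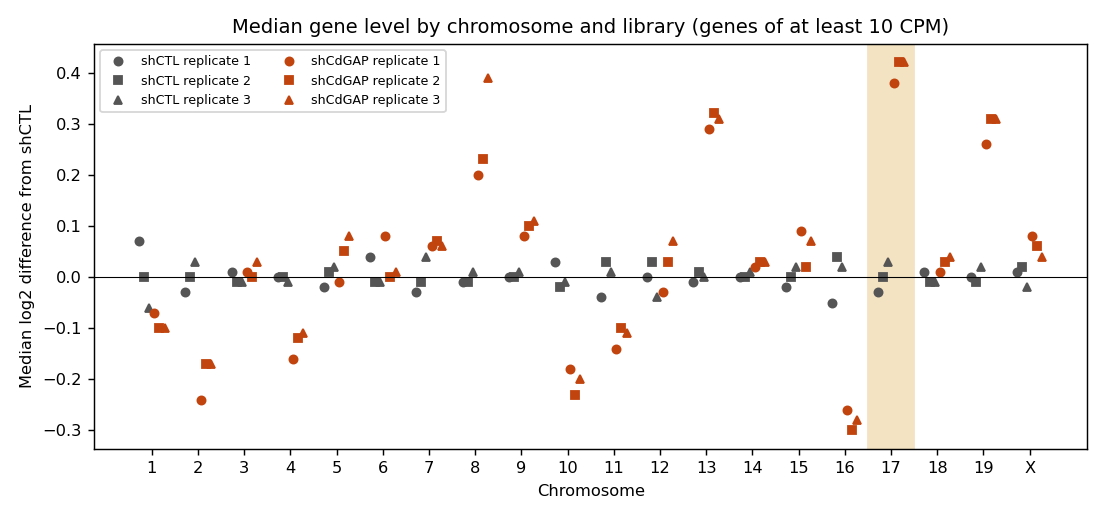
Median log2 difference of the genes of each chromosome (x axis, chromosomes 1 to 19 and X) from shCTL, in log2 units (y axis). Each point is 1 library, grey for shCTL (against the mean of the other 2) and orange for shCdGAP (against the shCTL mean). On the shaded chromosome 17 the shCdGAP points lie at 0.38 to 0.42, and the shCTL points of each chromosome lie near 0.

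Chromosome 17 was not the only one that moved. Its median was the highest of 20 chromosomes, followed by chromosome 13 (0.33), 19 (0.29) and 8 (0.27), and the lowest were chromosomes 16 (−0.3), 10 (−0.22) and 2 (−0.19). On chromosome 13 the 3 shCdGAP libraries gave 0.29, 0.32 and 0.31, and on chromosome 19 they gave 0.26, 0.31 and 0.31. Chromosome 8 was less even, at 0.2, 0.23 and 0.39. The difference between chromosome 17 and these 3 chromosomes was not tested.

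The members were shifted as a body, with a spread like that of other chromosomes. Their median absolute deviation was 0.23 log2 units, against 0.2 to 0.29 on the other 19, and 61.3% of them lay within 0.3 log2 units of their median, against 51.8% to 64.4%. The spread was wider in shCdGAP replicate 1, where the interquartile range ran from −0.08 to 0.84, than in replicates 2 (0.20 to 0.64) and 3 (0.13 to 0.64). The shift was similar across abundance, with medians of 0.45 for 153 members of 10 to 30 CPM, 0.38 for 204 of 30 to 100 CPM and 0.4 for 87 above 100 CPM. The last class was the tightest, with an interquartile range of 0.34 log2 units against 0.58 for the first. The minimum itself let in 30 members only through shCdGAP (median 1.34) and 7 only through shCTL (median −0.69). How many of them fell in each class was not counted, so medians and spreads of the classes may carry this selection. Medians were 0.42 and 0.4 for the 222 members on each strand. The 142 genes of chromosome 17 at 1 to 10 CPM, which the rule left out, had a median of 0.36, against 0.02 for genes of that level elsewhere. The 435 protein-coding members had a median of 0.42. The other 9, pseudogenes and noncoding transcripts, had a median of −0.01.

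**Figure D2:**
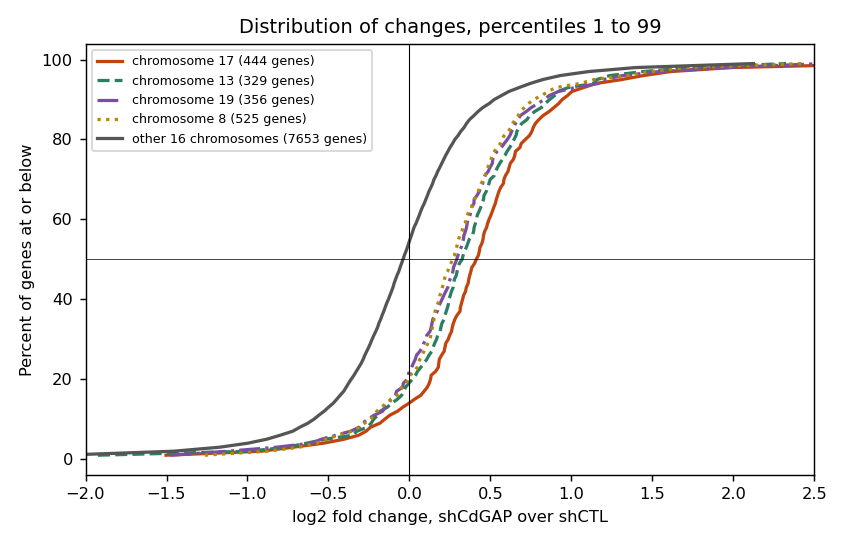
Cumulative distribution of log2 fold changes (x axis, shCdGAP over shCTL) as the percent of genes at or below each value (y axis, percentiles 1 to 99). Lines stand for chromosome 17, the 3 chromosomes with the next highest medians and the other 16; the chromosome 17 line runs to the right of the others in its middle part, with its median at 0.41.

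Calls followed the same picture but depended on the libraries. Of the 444 members, 139 were called higher and 14 lower at an adjusted p under 0.05 (edgeR quasi-likelihood test), which is 31.3% and 3.15%. Over all genes tested 10.4% were called higher and 11.4% lower, and over the 9307 genes of at least 10 CPM on chromosomes 1 to 19 and X these shares were 10.3% and 8.78%. Nothing is read from these counts, since this contrast chose the members. Without shCdGAP replicate 1 the counts were 276 and 27, and the shares over all genes tested also grew, to 19.9% and 21.9%. Leaving out shCTL replicates 1, 2 or 3 in turn gave 76, 43 or 48 higher and 12, 8 or 9 lower, with 5.74%, 3.95% or 4.13% of all genes tested called higher and 7.65%, 6.28% or 6.55% lower. Leaving out shCdGAP replicate 2 gave 75 higher and 8 lower (5.95% and 6.94% of all genes tested), and leaving out replicate 3 gave 110 and 12 (8.96% and 9.19%). In 237 members every shCdGAP library was above every shCTL library and in 23 every one was below, against 21.7% and 22.4% of all genes tested in these directions. Of the members, 407 reached 10 CPM in both group means (median log2 fold change 0.38), 30 only through shCdGAP and 7 only through shCTL. The last 2 groups were bound to differ.

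Along the chromosome each 10 Mb bin had a median above 0. Bin medians by start position ran from 0.33 (0 to 10 Mb, 18 members) to 0.47 (80 to 90 Mb, 32 members). The first bin was the least even: 11 of its 18 members were above 0, and its medians against shCTL were 0.17, 0.23 and 0.13 in the shCdGAP libraries and 0.12, −0.06 and −0.05 in the shCTL libraries. The lowest bin median was 0.16 without shCdGAP replicate 1. The densest bins, from 20 to 30 Mb (124 members) and from 30 to 40 Mb (98 members), had medians of 0.43 and 0.38. In running medians of 21 consecutive members, none of 424 windows was below 0 in the fit over 6 libraries. The lowest window was at 0.11 near 37 Mb and the highest at 0.65 near 32.9 Mb, and 95% of windows lay between 0.2 and 0.6. Chromosomes 13, 8 and 19 also had no window below 0.

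**Figure D3:**
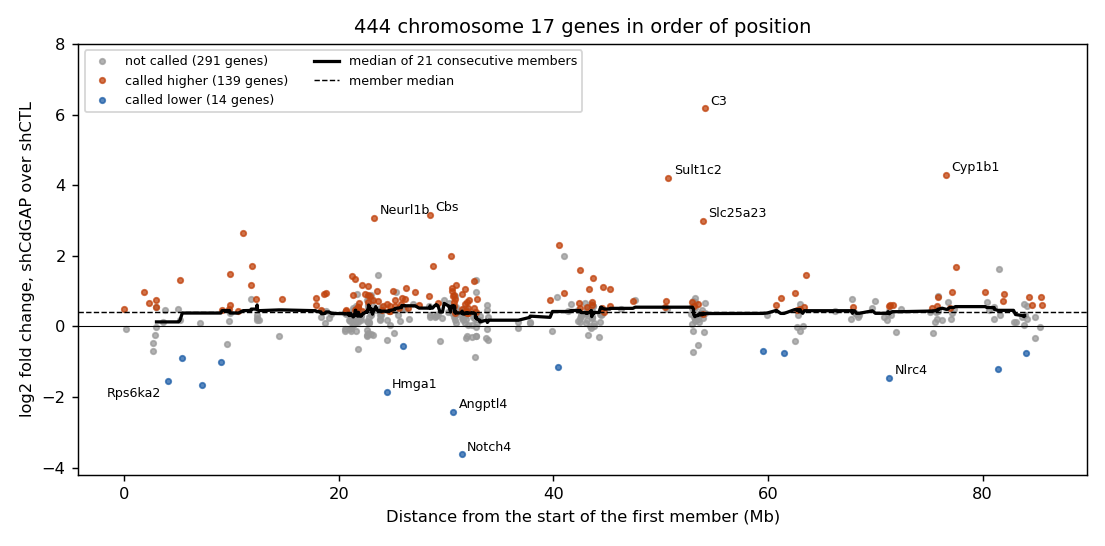
Log2 fold change (y axis) of the 444 members by distance in Mb from the start of the first member (x axis). Points are genes, orange if called higher (139), blue if called lower (14) and grey if not called; the black line is the median of 21 consecutive members, which stays between 0.11 and 0.65, and the dashed line the member median.

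The most abundant member of each of the 9 bins was taken as an example, and 5 of the 9 had all shCdGAP libraries above shCTL. Ezr, which links membrane proteins to actin, was at 726, 699 and 741 CPM in shCTL and 717, 827 and 826 CPM in shCdGAP. Its groups overlapped (log2 fold change 0.13 ± 0.10, SE). Tcp1, a subunit of the chaperonin CCT, was at 534, 475 and 494 CPM in shCTL and 611, 700.1 and 802 CPM in shCdGAP (0.49 ± 0.13). Rps2, a ribosomal protein, was at 644, 473 and 497 CPM and then 691, 774 and 938 CPM (0.57 ± 0.17). In both of these genes the groups did not overlap. Hsp90ab1, the most abundant member and a cytosolic chaperone, was at 2816, 2747 and 2793 CPM in shCTL and 3438, 3950.4 and 4531 CPM in shCdGAP (0.51 ± 0.13). Myl12a, a myosin regulatory light chain, was at 236, 247 and 259 CPM and then 333, 368 and 376 CPM (0.54 ± 0.10). Calm2, a calmodulin gene, was at 262, 349 and 354 CPM and then 442, 644 and 622 CPM (0.82 ± 0.19). For these 3 genes too the shCdGAP libraries were all higher. Twsg1, a secreted BMP regulator, overlapped between groups, at 98, 138 and 135 CPM and then 185, 150 and 132 CPM (0.33 ± 0.19). Tubb5, a beta tubulin, was at 1102, 1455 and 1537 CPM in shCTL and at 707.6, 2400.2 and 2363 CPM in shCdGAP (0.42 ± 0.45), so replicate 1 lay below shCTL and the other 2 above. Its log2 fold change was 0.82 without shCdGAP replicate 1, and 0.18 or 0.19 without replicate 2 or 3. Lonp1, a mitochondrial protease, went the other way, at 441, 347 and 343 CPM and then 233, 251 and 302 CPM (−0.52 ± 0.15), with all shCdGAP libraries below shCTL. Tubb5, Rps2 and other ribosomal protein genes have near-identical copies or pseudogenes and their counts are uncertain to that extent.

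By the fall in absolute deviations, no breakpoint stood out. The best single change point, before Tcp1 at 12.9 Mb, lowered the sum of absolute deviations from segment medians by 0.555%, which ranked 15 among the 20 chromosomes. The same procedure gave 7.74% on chromosome 6 (change point at 49.07 Mb, medians 0.35 and −0.05) and 5.66% on chromosome 10. The 24 members before Tcp1 had a median of 0.15, and the 420 from Tcp1 on had 0.42. A segment of 24 members can lower the sum over 444 only a little. Even so, a segment of 28 of the 462 genes on chromosome 3 lowered the sum there by 1.27%. In size, the step of 0.27 was below those on chromosomes 6 (−0.39), 3 (−0.31) and 10 (−0.31). It was above those on the other chromosomes. In shCdGAP replicates 1 to 3 the 24 were at −0.01, 0.21 and 0.13. Each shCdGAP library, set against the same shCTL mean, placed its change point at 12.91 or 12.92 Mb. The position stayed at 12.9 Mb without shCTL replicate 1 or 3 and without shCdGAP replicate 2 or 3. It was not stable in all settings. Without shCTL replicate 2 it was 25.8 Mb, and without shCdGAP replicate 1 it was 12.2 Mb. With a member minimum of 5 or 20 CPM it was 79.7 or 78.9 Mb.

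These 24 proximal members were mixed rather than evenly low. Of them, 14 were above 0 and 10 below, and 5 were at least 1 log2 unit under the member median. Scaf8, the first member, was at 64.7, 63.5 and 65.7 CPM in shCTL and 96.1, 85.8 and 88.7 CPM in shCdGAP (0.48 ± 0.09). Mpc1, a subunit of the mitochondrial pyruvate carrier, was at 11.35, 13.7 and 14.1 CPM and then 33.1, 32.2 and 32.2 CPM (1.31 ± 0.13). Both had all shCdGAP libraries above shCTL. In the same stretch lay Rps6ka2, a kinase of the ribosomal S6 family activated by ERK, at 125, 109.6 and 107 CPM and then 55.2, 31.7 and 30.7 CPM (−1.54 ± 0.25). The genes beside the change point were Igf2r, a receptor that clears IGF2 (12.8, 15.4 and 12.8 CPM, then 11.5, 10.1 and 7.45 CPM, −0.50 ± 0.20), and Mrpl18, a mitochondrial ribosomal protein (0.16 ± 0.35), on one side. On the other were Tcp1 and Acat2, an acetyl-CoA acetyltransferase of the sterol pathway (49.8, 41.2 and 42.4 CPM, then 212, 82.2 and 77.8 CPM, 1.48 ± 0.41). The log2 fold change of Acat2 was 0.86 without shCdGAP replicate 1. Mrpl18 was at 34.3 CPM in shCdGAP replicate 1 and at 81.1 and 84.4 CPM in replicates 2 and 3, around its shCTL values of 45.7, 69.4 and 63.4 CPM.

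With 2 change points allowed the sum fell by 1.38% (rank 14 of 20), and the segment they enclosed was a stretch of 17 members from Mrps18b (35.91 Mb) to Mut (40.93 Mb). Its median was 0.11, between segments at 0.41 and 0.44, and 11 of 17 members were above 0, with 1 called higher and 0 lower. In the 3 shCdGAP libraries it was at 0.17, 0.26 and 0.15 against shCTL. It overlaps part of the histocompatibility complex, whose H2- genes the rule left out. Mrps18b was at 53.3, 54.3 and 59.7 CPM in shCTL and 44.2, 59.4 and 62.6 CPM in shCdGAP (−0.01 ± 0.16). Ppp1r10, a regulatory subunit of protein phosphatase 1, was at −0.26 ± 0.24 (−0.08 without shCTL replicate 3, −0.06 and −0.43 without shCdGAP replicates 1 and 3), and Mut, methylmalonyl-CoA mutase, at 0.09 ± 0.13. Cenpq, a kinetochore protein, was at 14.7, 21.8 and 22.5 CPM and then 5.45, 28.2 and 30.9 CPM (0.13 ± 0.59), so replicate 1 alone lay below shCTL. In the genes just outside, the log2 fold change was 0.36 ± 0.12 for 2310061I04Rik and 0.98 ± 0.35 for Atat1, a tubulin acetyltransferase, before the stretch. After it, Cd2ap, an adaptor between membrane proteins and actin, was at 757, 546 and 531 CPM and then 1005, 952 and 1144 CPM (0.76 ± 0.17), with no overlap. Tnfrsf21, a death receptor, was at −0.14 ± 0.15. In the separate libraries the best 2 change points lay at 12.94 and 22.2 Mb in shCdGAP replicate 1, at 12.91 and 86.17 Mb in replicate 2 and at 26.25 and 35.87 Mb in replicate 3, so no pair recurred.

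**Figure D4:**
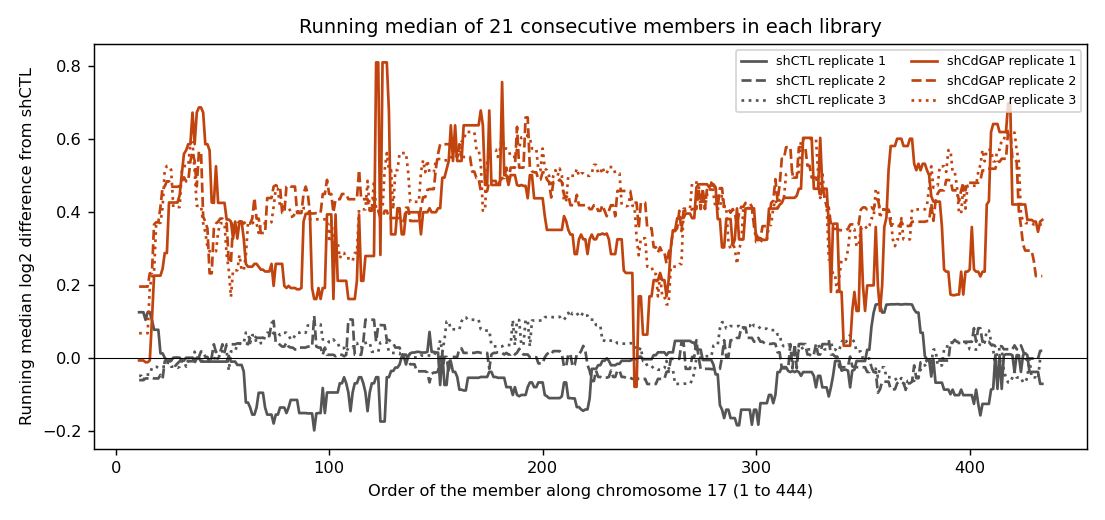
Running median of 21 consecutive members (y axis, log2 difference from shCTL) by order along chromosome 17 (x axis), 1 line per library, grey for shCTL and orange for shCdGAP. The shCdGAP replicates 2 and 3 stay above 0, at 0.2 to 0.66 and 0.07 to 0.62, while replicate 1 ranges from −0.08 to 0.81 and shCTL lines from −0.2 to 0.15.

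In 270 members (60.8%) the value against the shCTL mean was above 0 in all 3 shCdGAP libraries, and in 34 (7.66%) it was below 0 in all 3. It was above 0 for 312 members in replicate 1, 383 in replicate 2 and 365 in replicate 3. In replicate 1, 33 members lay at least 1 log2 unit below both other shCdGAP libraries and 24 at least 1 above both, while replicates 2 and 3 differed by that much in 0 members. The matching shares of other genes are not given here, so these splits are not read as a trait of chromosome 17. Among the 33 were genes of the cell cycle and chromatin copying, chosen here after their values were seen. Ndc80, a kinetochore subunit, was at 29.1, 47.4 and 45 CPM in shCTL and 4.51, 74.8 and 66.1 CPM in shCdGAP. Kifc1, a mitotic kinesin, was at 23.8, 29 and 34.7 CPM and then 4.65, 53.5 and 47 CPM. Uhrf1, which guides maintenance of DNA methylation, was at 80.4, 117 and 120.5 CPM and then 18.1, 155 and 183 CPM. In each of these 3 genes replicate 1 was the lowest library of the 6 and replicates 2 and 3 the highest. The part of this library in the results was not tested beyond leaving it out: without it the member median was 0.44.

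Members far from the common shift were taken as those at least 1 log2 unit from the member median, 17 below and 19 above (8.11% of members, against 7.71% of genes on the other chromosomes from their own median). They were chosen by their values, so these are descriptions. In all 63 members, the 17 included, had a log2 fold change under 0. The group below had members in each 10 Mb bin, but 5 of its 17 were among the 24 proximal members before Tcp1. The group above had members in each bin except 0 to 10 Mb. In the group above, the neighbours Cyp39a1 and Enpp5 were both far from the median.

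Among those below, Notch4, a receptor of the Notch family, was the lowest. It was at 19.3, 18.5 and 17.5 CPM in shCTL and at 1.7, 1.5 and 1.31 CPM in shCdGAP (log2 fold change −3.62 ± 0.18). Angptl4, a secreted inhibitor of lipoprotein lipase, was at 78.1, 87 and 89 CPM and then 8.58, 18.2 and 20.7 CPM (−2.42 ± 0.32). Hmga1, an architectural chromatin protein whose counts may be shared with a close copy, was at 149.6, 88.4 and 81.8 CPM and then 26.4, 24.9 and 37.5 CPM (−1.85 ± 0.29). None of the 3 overlapped between groups. Nlrc4, an inflammasome protein, was at 34.2, 33.9 and 34.6 CPM and then 15.2, 9.61 and 12.5 CPM (−1.46 ± 0.19). Socs5, a suppressor of cytokine signalling, was at 94.2, 82 and 78.5 CPM and then 51.8, 50.2 and 50.7 CPM (−0.74 ± 0.11). Both had all shCdGAP libraries below shCTL, as did 16 of the 17 in all. The exception, Eme2, had shCTL replicate 1 (8.77 CPM) within the shCdGAP range of 7.41 to 9.16 CPM. The group also held Plekhh2, Pla2g7, Agpat4, Pde10a, Ier3, Man2a1, Sema6b, Efna5, the noncoding RNA 3300005D01Rik and Rps6ka2, given above.

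Among those above, C3, the central complement protein, was the highest. It was at 0.722, 4.37 and 5.3 CPM in shCTL and at 153, 299 and 316 CPM in shCdGAP (6.18 ± 0.74). Cyp1b1, a cytochrome P450, was at 0.567, 2.26 and 3.39 CPM and then 39.6, 39.9 and 44.8 CPM (4.29 ± 0.55). Sult1c2, a cytosolic sulfotransferase, was at 5.42, 5.68 and 5.53 CPM and then 142, 77.6 and 88.5 CPM (4.21 ± 0.27). In all of them the groups lay far apart. Cbs, cystathionine beta-synthase, was at 2.22, 2.91 and 2.6 CPM and then 30.1, 19.86 and 19.98 CPM (3.17 ± 0.24). Neurl1b, a ubiquitin ligase of Notch ligands, was at 4.85, 7.71 and 6.55 CPM and then 43.3, 64.6 and 53.1 CPM (3.07 ± 0.24). Slc25a23, a mitochondrial carrier, was at 5.06, 3.97 and 3.87 CPM and then 57.5, 24.7 and 20.9 CPM (3.00 ± 0.43). Of the 19, 14 reached the 10 CPM minimum only through shCdGAP, and of the 17 below, 5 reached it only through shCTL. Slc9a3r2, a scaffold protein with one of the 4 smallest p-values among higher members, lay just under the bound, at 77.7, 82.1 and 83.9 CPM and then 230.0, 199.9 and 189 CPM (1.34 ± 0.11). The other members above the bound were Dact2, Cyp39a1, Adamts10, Enpp5, Ermard, Sik1, Map4k3, Dync2li1, Nfkbie, Acat2, Crebrf, Ptprm and Abca3. Crebrf was the one whose groups overlapped, with 85.2 CPM in shCdGAP replicate 1 and 16.8 and 13.3 CPM in the other 2.

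**Figure D5:**
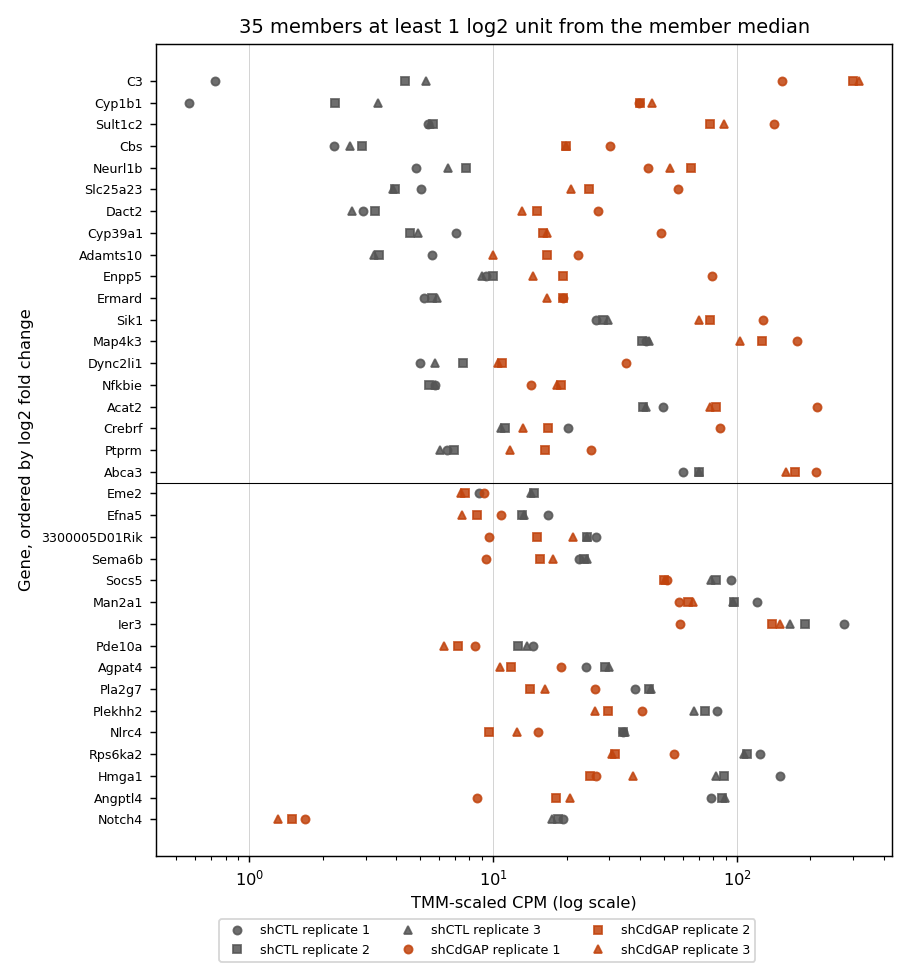
Levels of the members at least 1 log2 unit from the member median, except 1 below it that is not reported here (y axis, ordered by log2 fold change, with those above over the line and those below under it) as TMM-scaled CPM on a log axis (x axis). Each point is 1 library, grey for shCTL and orange for shCdGAP; the groups overlap in Crebrf and Eme2 alone.

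Other properties were compared between these groups as descriptions. In shCTL the median level was 34.3 CPM for the 17 below, 5.66 CPM for the 19 above and 40.9 CPM for the 272 members within 0.3 log2 units of the median. Of the 19 above, 14 reached the 10 CPM minimum only through shCdGAP, so their low shCTL level was fixed by the filter. Of the 17 below, 5 reached it only through shCTL. These levels are therefore not read as a property of the groups. The median span from start to end was 32.8 kb below, 24.6 kb above and 15.3 kb near the median. Promoters were matched for 370 members in the RefSeq table. The median CpG ratio was 0.808 in 14 matched promoters of the group below, 0.671 in 13 of the group above and 0.836 in 228 of those near the median. A ratio under 0.4 was found in 3 of the 14, in 2 of the 13 and in 10 of the 228. Exact letters of 4 motifs were searched on both strands, and none contains another. The TATA box letters TATAAA occurred in 7.14% of the 14 promoters below, 7.69% of the 13 above, 7.46% of the 228 near the median and 13.6% of the 32851 promoters in the table. For the CCAAT box the shares were 35.7%, 38.5%, 39.9% and 37.4%. The GC box letters GGGCGG, which the factor Sp1 binds, occurred in 57.1%, 84.6%, 70.6% and 35.7%. For the E-box letters CACGTG they were 7.14%, 15.4%, 15.4% and 7.15%. The 32851 promoters were not limited to genes of at least 10 CPM. Their median CpG ratio was 0.384, against 0.826 over the 370 matched members, so their shares are not a like comparison for chromosome 17. With 14 and 13 promoters, 1 promoter moves a share of the far groups by 7.14 or 7.69 percentage points.

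By role, lists of chromosome 17 genes mostly sat near the common shift. Their calls are to be read beside the 31.3% of all members called higher and 3.15% called lower, and beside the 10.4% and 11.4% of all genes tested. Without shCdGAP replicate 1, 276 of the members were called higher and 27 lower, with 19.9% and 21.9% of all genes tested. Of 28 members that act in transcription, chromatin and splicing, 28 had a log2 fold change above 0 (median 0.36) and 26 lay within 0.3 of the member median. Of these, 9 were called higher and 0 lower (without shCdGAP replicate 1, 24 and 0; 1 to 24 higher with any library left out). Ddx39b, an RNA helicase of splicing and export, was at 234, 215 and 229 CPM and then 289.8, 427 and 417 CPM (0.74 ± 0.16). Brd2, which reads acetylated histones, was at 233, 238 and 264 CPM and then 218, 343 and 378 CPM (0.35 ± 0.21), with replicate 1 below shCTL. Brd2 was at 0.57 without shCdGAP replicate 1 and at 0.20 without replicate 3. Of 19 proteasome, ribosome and translation members, 16 were above 0 (median 0.29), with 4 called higher and 0 lower (11 and 0 without shCdGAP replicate 1, 0 to 11 higher with any library left out). Rps10 was at 345, 270.5 and 278 CPM and then 556, 394 and 451 CPM (0.65 ± 0.17).

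Of 10 chaperones and cytoskeletal genes, 10 were above 0 (median 0.53), 5 called higher and 0 lower (8 and 1 without shCdGAP replicate 1, 2 to 8 higher with any library left out). Of 17 genes of metabolism and transport, 16 were above 0 (median 0.45), 6 called higher and 0 lower (10 and 1 without shCdGAP replicate 1, 2 to 10 higher with any library left out). Clic1, a chloride channel protein, was at 372, 369 and 375 CPM and then 454, 481 and 516 CPM (0.38 ± 0.09). Atp6v0c, a proton pump subunit, was at 153, 179 and 192 CPM and then 205, 193 and 196 CPM (0.18 ± 0.11), with the groups barely apart. Of 15 cell cycle and p53 genes, 11 were above 0 (median 0.26), 1 called higher and 1 lower. Without shCdGAP replicate 1 the counts were 10 and 1 and the median was 0.58 (0 to 10 higher with any library left out). Cdkn1a, the cyclin-dependent kinase inhibitor p21 and a target of p53, was at 198, 198 and 188 CPM and then 144, 129.8 and 125 CPM (−0.55 ± 0.10), with no overlap between groups. Birc6, an inhibitor of apoptosis, was at 0.31 ± 0.14.

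The 2 lists of signalling and inflammation held most of the listed genes far from the shift. The lists were chosen with earlier results of these data known, so this is not read as a trait of these roles. Of all members, 8.11% lay that far. Of 24 receptors, ligands and signalling genes, 17 were above 0 (median 0.3), 6 called higher, 3 lower and 5 far from the member median, from Notch4 to Map4k3, a kinase upstream of JNK (1.68 ± 0.20). Without shCdGAP replicate 1 the counts were 10 and 4 (2 to 10 higher with any library left out) and the median was 0.17. Tulp4 was at 209, 188 and 183 CPM and then 344, 250.1 and 252 CPM (0.54 ± 0.15). Crim1, a membrane-bound BMP regulator, was at 124, 156 and 151 CPM and then 169, 205 and 204 CPM (0.42 ± 0.14). Both had all shCdGAP libraries above shCTL. Of 11 genes of inflammation and antigen presentation, 8 were above 0 (median 0.38), 4 called higher, 0 lower and 3 far from the member median (8 and 1 called without shCdGAP replicate 1, 3 to 8 higher with any library left out). This list also took in genes of wider roles, and Glo1, glyoxalase 1, was counted in the metabolism and transport list too. Glo1 was at 107, 118 and 119 CPM and then 184, 168 and 178 CPM (0.62 ± 0.10). Zfp36l2, which destabilises AU-rich messenger RNAs, overlapped between groups (0.22 ± 0.12).

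Several members encode subunits whose partners lie on other chromosomes, a comparison chosen after the values were seen. Tcp1 was at 0.49, and the 7 other CCT subunits had a median of 0.02 and ranged from −0.4 (Cct8, on chromosome 16) to 0.16. The 6 cytosolic ribosomal protein genes of chromosome 17 (Rps2, Rps10, Rpl10a, Rps28, Rps18 and Rpl36) had a median of 0.64, against 0.21 for 71 elsewhere. The 5 complex I subunits of chromosome 17 had a median of 0.5, against −0.01 for 31 elsewhere, and the 8 mitochondrial ribosomal proteins 0.14, against −0.2 for 68. Psmb1, a proteasome subunit, was at 0.31, against a median of −0.14 for 34 elsewhere. In each of these sets the genes on chromosome 17 had the higher median, which their choice as members of a shifted chromosome favours. Just inside the 10 CPM minimum lay Adamts10 and Notch4 (10.1 CPM each, log2 fold changes 2.00 and −3.62), and just outside lay Zfp52 (9.86 CPM, −0.65) and Pkdcc (9.81 CPM, 1.68).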

How the data were processed

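RNA from 3 shCTL and 3 shCdGAP libraries was sequenced, and groups and replicate numbers were taken from the titles. The deposited files hold unnormalised counts of fragments for each gene, which the authors made with featureCounts 1.4.6 on TopHat alignments with Ensembl release 77 on GRCm38, strand setting 2 (reverse-stranded), per the file headers. The submitters' processing notes also name TopHat2 2.0.14, Trimmomatic 0.30, CASAVA 1.8, DESeq and Cuffdiff 2.2.1. Symbols matched 40254 of 41214 genes.

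Counts were fitted with edgeR 4.0.16 (R 4.3.3; filterByExpr, minimum count 10 and total 15; TMM; quasi-likelihood test) over 13483 genes, with Benjamini-Hochberg adjustment over all of them. Each standard error is the size of the log2 fold change divided by the root of its F statistic. CPM of single genes are TMM-scaled, with n = 3, and the member minimum used library totals; values against shCTL use log2 CPM with a prior count of 2. Change points minimised absolute deviations with at least 15 members a segment. The fit was also run on simulated data with known fold changes in randomly drawn genes. That simulation held no outlying library and no shifted chromosome, so it says nothing about these.

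Members and lists were chosen with earlier results of these data known. Named genes were the 4 smallest p-values in each direction, the 6 largest rises and falls, the most abundant member of each 10 Mb bin, the 2 members on each side of change points, up to 3 members of each list and the 2 genes on each side of the CPM minimum; Scaf8, Mpc1, Ndc80, Kifc1, Uhrf1, Crebrf, Eme2 and the partner genes were added after their values were seen. The values of 2 named genes are not reported here. Alternatives were DESeq2 1.42.0, other scalings and filters, other member minimums, each library left out and a replicate block. Deviations from the group means were correlated between same-numbered libraries (0.36, 0.29 and 0.25). Differently numbered libraries are not compared here, and the titles do not say that the numbers pair the libraries, so pairing is not settled. The main fit did not use the numbers, and the block did.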

Additional observations from a re-analysis of the deposited data

How the results depend on the processing

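The member median log2 fold change kept its sign in all alternatives run: it was 0.41 as reported, 0.39 to 0.44 with a library left out, 0.38 with the replicate number as a block and 0.35 with library totals only. It was 0.38 with the 10 CPM minimum set on the shCTL mean alone, an alternative chosen after seeing the data, as were the minimum on the shCdGAP mean alone and leaving out both libraries numbered 1. The block moved the count called higher from 139 to 129 and the count called lower from 14 to 13. Of the 46 genes that the naming rule chose it ended the calls of Clic1, Hsp90ab1 and Tcp1 (adjusted p = 0.0564, 0.0597 and 0.0705, edgeR), added Atat1 and Crim1 (0.0438 and 0.039), and turned Cenpq to −0.15. DESeq2 called 183 members higher and 17 lower, and 14% and 14.5% of all genes tested.

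Counts called were 43 to 276 higher and 8 to 27 lower with a library left out, and 310 and 34 without both libraries numbered 1. The lowest 10 Mb bin median, 0.33 as reported, was 0.16 to 0.31 with a library left out, 0.27 with totals only, 0.18 and 0.38 with the minimum on shCTL or shCdGAP alone and 0.20 without both libraries numbered 1. The highest, 0.47, was 0.45 to 0.51 with a library left out, 0.74 with a 5 CPM minimum and 0.92 with the minimum on shCdGAP alone. The change point moved most: 12.2 to 25.8 Mb with a library left out, 79.7 and 78.9 Mb with minimums of 5 and 20 CPM, 78.9 Mb with the minimum on shCdGAP alone and 25.8 Mb without both libraries numbered 1. In other settings it stayed at 12.9 Mb, among them DESeq2, library totals only, the block and the minimum on shCTL alone. The same held without shCTL replicate 1 or 3 and without shCdGAP replicate 2 or 3. The fall in absolute deviation, 0.555%, was 0.445% to 1.09% with a library left out, 0.246% at 5 CPM, 0.788% with the minimum on shCTL and 0.206% with it on shCdGAP. Members far below numbered 16 to 23 and far above 13 to 22 with a library left out, 11 and 10 at 20 CPM, where fewer genes enter, 30 below at a bound of 0.7 log2 units and 5 above with the minimum on shCTL alone. The causes of the other changes were not tested. With a library left out, Cenpq ran from −0.22 to 0.60, Mrpl18 from −0.04 to 0.49, Mrps18b from −0.10 to 0.14 and Mut from −0.02 to 0.17. Without a change of sign, Tubb5 ran from 0.18 to 0.82, Acat2 from 0.86 to 1.73, Brd2 from 0.20 to 0.57 and Ppp1r10 from −0.43 to −0.06. Without shCdGAP replicate 1 Atat1 was at 0.62, Ezr at 0.21, Twsg1 at 0.20 and Tnfrsf21 at −0.01. Without shCTL replicate 1 Atp6v0c was at 0.08, Twsg1 at 0.18 and Tnfrsf21 at −0.22, which was at −0.06 without shCTL replicate 2 and −0.22 without shCdGAP replicate 3, where Zfp36l2 was at 0.14. Without both libraries numbered 1 Mrps18b was at 0.11 and Mut at −0.00. Groups of 3 libraries limit what single genes can show.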
